A study of Rattus norvegicus with 21 samples.

Results

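The comparison described here is between 7 lesioned rats' dorsal striatum samples from the L-DOPA group and 8 lesioned samples from the saline group, 15 of the 21 samples of the series. Samples were assigned by the treatment in their labels alone, and no measured value was used to choose them. All were labelled as wild-type Sprague Dawley rats, an outbred stock, 120 days of age. Both groups carried a 6-hydroxydopamine lesion of the left medial forebrain bundle that, per the labels' protocols, removed at least 90% of the tyrosine hydroxylase-positive axons, followed by 3 weeks of recovery. The L-DOPA group was then injected with 6 mg/kg of L-DOPA daily over 7 days, with dissection 3 h after the final dose. No source used here gives the schedule of the saline injections. The other 6 samples were unlesioned and given saline. They are used below as a reference, but were not independent of the lesioned saline group, as described below. The labels number the samples of a group without naming animals, so the spread behind every p-value is that between samples, part of which may be technical.

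The dorsal striatum receives dopamine fibres from the midbrain, and most of its neurons are spiny projection neurons that carry dopamine receptors. Destroying those fibres leaves the tissue without its dopamine supply, and L-DOPA, which cells convert to dopamine, restores it in pulses that over days bring on abnormal movements in lesioned rats. In mammals DNA is methylated mainly at cytosines followed by guanine, called CpGs. CpG-dense stretches, many of them promoters, are usually little methylated, most other CpGs are highly methylated, and intermediate levels often mark distal regulatory elements or a mixture of cell types. Methyltransferases write the mark and TET enzymes oxidise it. Bisulfite converts unmethylated cytosine to a base read as T, and the share of reads that keep C is the methylation level used here. Sequencing after bisulfite cannot separate methylcytosine from hydroxymethylcytosine, nor an unmethylated cytosine from a C-to-T difference in the DNA sequence itself.

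The 15 lesioned libraries listed 1.134e+06 to 1.49e+06 cytosines, each read at least 10 times, with a median coverage of 38 to 62 reads per cytosine. A sum of reads over CpGs was taken in tiles of 250 bp, in windows of 1 kb and 100 kb, and at single cytosines with the strands kept apart. The mean squared difference between any 2 of the 15 libraries was 2.35 to 10.9 times what counting alone would give with reads taken as independent, so no pair looked like one library deposited under separate names. By the numbers in their deposited names, the libraries form 2 runs, here series 1 (L-DOPA 1 to 3, saline 1 to 6) and series 2 (L-DOPA 4 to 7, saline 7 and 8, and all 6 unlesioned libraries). The meaning of these runs is not stated in the sources used here. No rn5 gene annotation was used, so positions are given without genes, and the tissue could not be checked against marker genes.

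At some cytosines the levels of the libraries fell on separate steps near 0, 50 and 100%. A cytosine was called step-like where every one of the 15 lesioned libraries lay at or under 10%, between 30 and 70%, or at or above 90%, with at least 2 libraries low and at least 2 higher. This definition was chosen after values had been seen, and the unlesioned libraries took no part in it. Of 960019 cytosines listed in all 21 libraries, 221 (0.0230%) were step-like, and 40 of these had all 3 steps.

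Across the 221 step-like cytosines, each of the 6 unlesioned libraries resembled 1 lesioned saline library and no other. Unlesioned 1 went with saline 2 (Pearson's r across cytosines 0.943), unlesioned 2 with saline 3 (0.924) and unlesioned 3 with saline 5 (0.956). Unlesioned 4 went with saline 6 (0.904), unlesioned 5 with saline 7 (0.965) and unlesioned 6 with saline 8 (0.9502). In these 6 pairs the libraries stood on the same step at 85.5% to 97.7% of the cytosines, while the other 42 pairs of an unlesioned and a lesioned saline library had r of 0.132 to 0.527. Saline 1 and saline 4 had no such partner. Over the common tiles, where matched pairs were not chosen, the root mean square difference after counting variance was 6.14 points in the 6 pairs and 6.91 in the other 42, with overlapping ranges of 4.93 to 8.91 and 4.33 to 10.4 points. No L-DOPA library had one either: the 56 pairs of an L-DOPA with a lesioned saline library had r of 0.153 to 0.517, the 21 pairs within L-DOPA 0.153 to 0.482 and the 28 within lesioned saline 0.160 to 0.515. The labels do not say that matched libraries come from one animal, and whether they do was not tested. The 15 libraries compared here thus held no pair alike in this way, whereas the lesioned saline and unlesioned groups were not independent of each other in any model fitted to all 21 libraries.

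**Figure D1:**
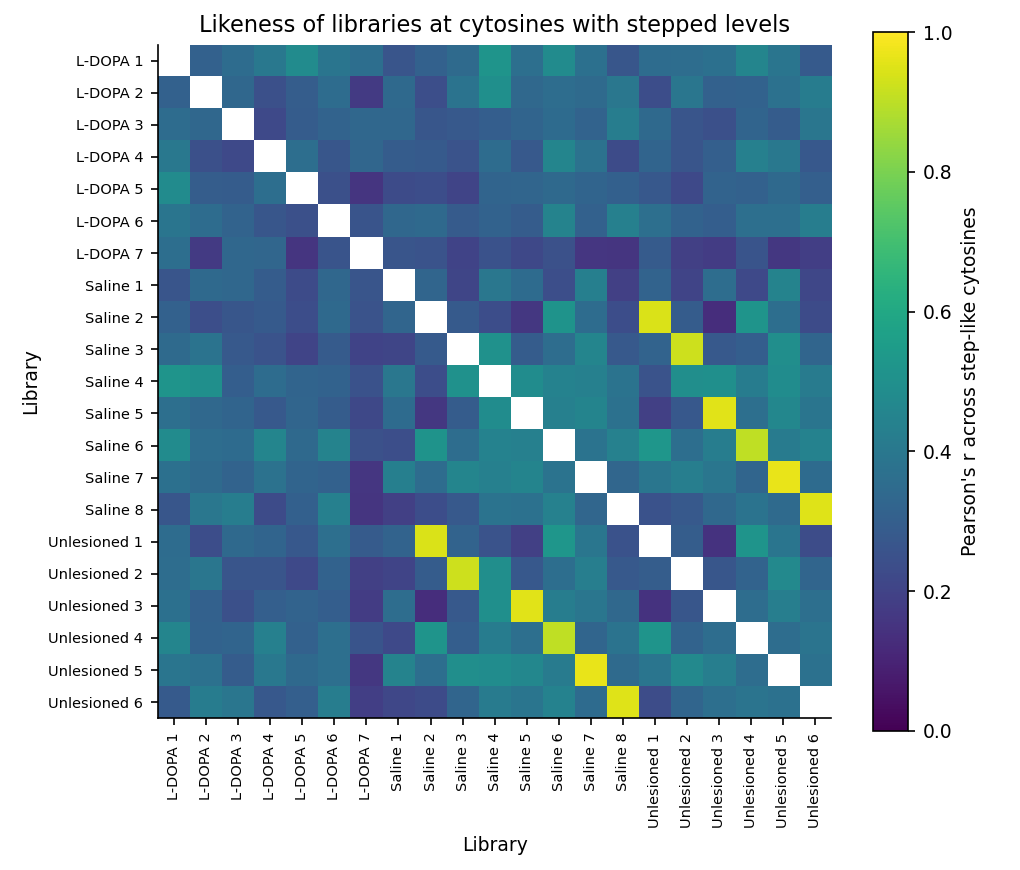
Pearson's r between each pair of the 21 libraries across the 221 step-like cytosines, with libraries on both axes and r on the colour scale. The 6 bright cells on each side of the diagonal are the pairs of an unlesioned with a lesioned saline library, at r of 0.904 to 0.965, and no L-DOPA library exceeds 0.517.

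Mean methylation was taken over the 139031 tiles measured in all 21 libraries, each tile counting once. In the L-DOPA group it was 47.8, 47.4, 43.0, 46.8, 47.0, 47.3 and 42.5% in replicates 1 to 7, with a mean of 45.9% ± 2.24 (SD, n = 7). In the lesioned saline group it was 46.9, 44.8, 46.2, 47.1, 46.5, 47.8, 47.2 and 47.0% in replicates 1 to 8, with a mean of 46.7% ± 0.910 (SD, n = 8). L-DOPA 3 and L-DOPA 7 lay below every saline library, and the other 5 L-DOPA libraries lay inside or at the upper edge of the saline range. The difference, L-DOPA minus saline, was −0.736 percentage points (SE 0.904, 95% interval −2.63 to 1.03), which an exact two-sided permutation test did not separate from 0 (p = 0.403). The interval thus spans values on either side of 0.

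The 2 low libraries also differed in where their reads fell. Reads were compared between tiles of 15 or more CpGs and tiles of 2 or 3 CpGs, and the median count per tile of the first over that of the second is called the read ratio. The count is coverage summed over a tile's CpGs, so a read counts once for each CpG it covers. The size of the ratio thus includes the number of CpGs and is not a fold of sequencing depth. Only its differences between libraries are used. It was 30.2 in L-DOPA 3 and 31.3 in L-DOPA 7, 14.8 to 19.7 in the other 5 L-DOPA libraries and 18.3 to 23.4 in the 8 saline libraries. Unlesioned 1, at 33.6 and with a mean methylation of 43.1%, was the remaining library above the limit of 28 used below. That limit was set with earlier results of these data known. Without L-DOPA 3 and 7 the L-DOPA mean was 47.2% ± 0.400 (SD, n = 5), now above the saline mean by 0.557 points (SE 0.368, 95% interval −0.339 to 1.54, exact permutation p = 0.238). The 5 libraries left then had the lower read ratio, 17.6 against 20.4 under saline (exact permutation p = 0.0373, 0.108 adjusted over 8 quantities), and the part of that in the positive sign was not tested. The sign of the mean difference therefore changed with these 2 libraries, and their read distribution moved with it; the part of either in the other was not tested.

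**Figure D2:**
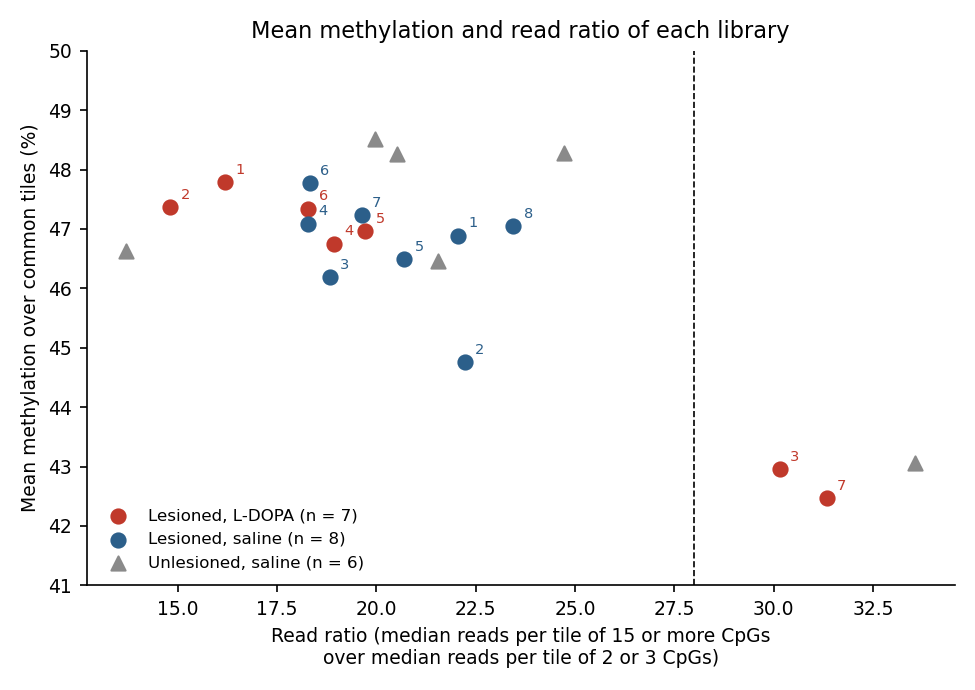
Mean methylation over the 139031 common tiles (percent, vertical axis, which does not start at 0) against the read ratio (horizontal axis) for each library, with the replicate number beside the lesioned ones and the limit of 28 as a dashed line. L-DOPA 3, L-DOPA 7 and unlesioned 1 lie right of the line at 42.5 to 43.1%, and the remaining libraries lie left of it at 44.8% or above.

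Among the 13 lesioned libraries at or under the limit, libraries ranked higher by read ratio ranked lower by mean methylation. Pearson's r was −0.535 (permutation p 0.0629, 0.147 adjusted over 5 relations) and Spearman's rho −0.670 (permutation p 0.0148, 0.0370 adjusted). Without the 2 libraries farthest from the median ratio r was −0.704, and within the 8 libraries of series 1 it was −0.691. Series 2 held 5 such libraries, too few for a value. The relation was also negative within each of the 4 bands of methylation level, with rho from −0.451 to −0.698. By the permutation test of rho only the 20 to 50% band passed adjustment (adjusted p 0.0370), and the others had an adjusted p of 0.125. All bands come from the same 13 libraries, so they are not separate observations.

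The difference had the same sign in both series with all libraries, at −0.494 points in series 1 (3 against 6, exact permutation p = 0.750) and −1.26 in series 2 (4 against 2, exact permutation p = 0.600, where 0.0667 is the smallest p the design allows). Without L-DOPA 3 series 1 gave 1.04 points, and without L-DOPA 7 series 2 gave −0.124. At single cytosines the mean difference over 640826 positions was −0.625 points with all libraries and 0.548 without the 2. Over 112524 windows of 1 kb it was −0.905 and 0.692. The change of sign was thus present at each of these sizes.

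By chromosome, all 21 chromosomes with common tiles were lower in the L-DOPA group, by amounts from −0.307 to −0.858 points (smallest adjusted p 0.446 in the exact permutation test). Chromosome X had the smallest difference, with 35.7% ± 1.10 (SD, n = 7) under L-DOPA and 36.0% ± 0.4999 (SD, n = 8) under saline. Without L-DOPA 3 and 7, all 21 were higher, by 0.326 to 0.641 points (smallest adjusted p 0.317). No chromosome went against the others in either set of libraries, and none passed the test.

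CpG density and methylation level were tied closely in this tissue. Of the 14523 common tiles with 15 or more CpGs, 97.1% had a pooled level under 20% in the unlesioned libraries, and of the 57192 tiles with 2 or 3 CpGs, 44.2% had a level over 80%. Tiles were sorted by level in the unlesioned libraries and by the number of CpGs listed in any of the 21 libraries. Each unlesioned library resembled 1 lesioned saline library at step-like cytosines, so the levels are not independent of the saline group. Combinations with at least 200 tiles, 14 in all, were compared. With all libraries, the L-DOPA group was below the saline group in 13 of the 14 and above it in 1, with a smallest adjusted p of 0.825. Without L-DOPA 3 and 7, 14 of 14 were higher, with a smallest adjusted p of 0.419. The strata share libraries, so their common direction counts as 1 observation.

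With all libraries, the differences were widest in tiles of intermediate level, though not at every density. Tiles at 20 to 50% with 15 or more CpGs differed by −0.0887 points. Tiles of intermediate level with 2 or 3 CpGs were 32.8% ± 5.47 against 34.6% ± 2.57 in the 20 to 50% band (difference −1.80 points) and 64.0% ± 5.68 against 65.9% ± 2.32 in the 50 to 80% band (−1.95 points; SD, n = 7 and 8). Tiles over 80% with 2 or 3 CpGs differed by −0.604 points. Without L-DOPA 3 and 7 the strata with 2 or 3 CpGs differed by 1.33 points at 20 to 50%, 1.34 at 50 to 80% and 0.355 over 80%. Little-methylated dense tiles scarcely differed: those under 20% with 15 or more CpGs were at 1.97% ± 0.0860 under L-DOPA and 1.95% ± 0.189 under saline, with a 95% interval of −0.152 to 0.192 points. That interval is for the mean over the 14105 tiles of this stratum, not for single tiles.

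The differences with all libraries include L-DOPA 3 and 7, so their levels beside the other 13 lesioned libraries are a description and no separate result. In the 20 to 50% band with 2 or 3 CpGs they stood at 25.7 and 24.3%, against 29.1 to 38.1%. With 15 or more CpGs in that band they were also lowest, at 27.0 and 26.3%, against 27.5 to 32.8%, though the group difference there was small. In the 50 to 80% band with 2 or 3 CpGs they stood at 56.2 and 55.4%, against 61.2 to 68.9%, and over 80% at 87.3 and 87.1%, against 89.2 to 90.9%. Both fell inside the range of the others in dense tiles under 20%, at 2.07 and 1.94% with 15 or more CpGs (others 1.74 to 2.25%). In sparse tiles under 20% they were low again, at 6.04 and 5.64% with 2 or 3 CpGs (others 6.22 to 7.85%), and L-DOPA 7 also with 4 to 7 CpGs (4.48%, others from 4.73%). Under 20%, the strata in which both lay inside the range of the others were those with 8 or more CpGs.

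**Figure D3:**
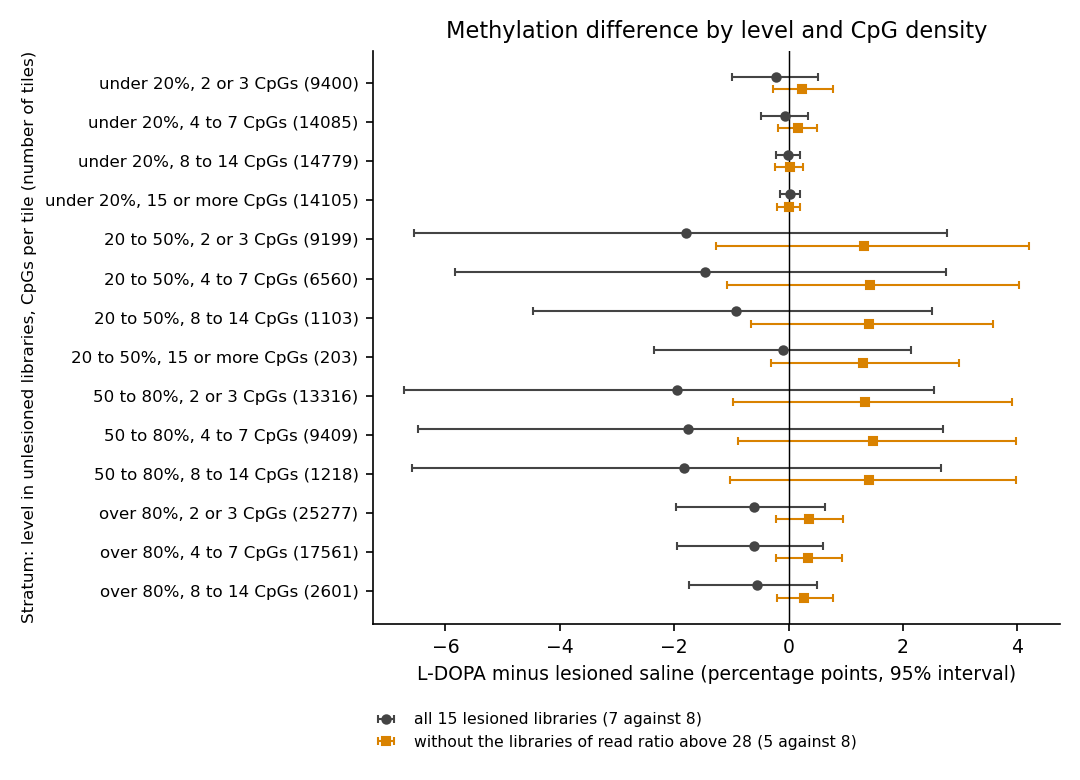
Difference in mean methylation (L-DOPA minus lesioned saline, percentage points) in 14 strata of level and CpG density, with 95% intervals from the exact permutation test, for all 15 lesioned libraries (dark circles) and without L-DOPA 3 and 7 (orange squares). Every interval includes 0, 13 of 14 circles lie left of 0, and all 14 squares lie right of it.

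The spread between libraries was wider in the L-DOPA group by its value, but not by the test. The root mean square difference between 2 libraries over common tiles, after taking off counting variance, was 8.23 points within L-DOPA (21 pairs), 6.05 within saline (28 pairs) and 7.13 between the groups (56 pairs). The exact permutation test of the difference in spread gave p = 0.161. It permutes the group labels, so this p and those of spread below also cover a difference of group centres. Without L-DOPA 3 and 7 the L-DOPA value was 5.69, below the saline value (exact permutation p = 0.754). At single cytosines the L-DOPA value stayed above the saline value in both sets, at 9.59 against 6.92 points with all libraries (exact permutation p = 0.0584) and 7.17 against 6.92 without the 2 (exact permutation p = 0.792). Whole profiles did not separate by treatment in the exact one-sided test (p = 0.525 with all libraries and 0.536 without the 2). The nearest lesioned library to a given library was of its own treatment for 7 of 15 and of its own series for 8 of 15.

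The groups' spreads differed most in tiles of intermediate level. In the 50 to 80% band the median SD between libraries was 8.61 points under L-DOPA and 6.802 under saline, and 70.8% of the 24022 tiles had the larger SD under L-DOPA. Without the 2 libraries the median was 5.85 points and 38.5% of tiles had the larger SD under L-DOPA. Under 20%, the medians were 0.960 and 1.00 points with all libraries. No band passed the test in either set (adjusted p 0.217 with all libraries and 0.834 without the 2).

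At some tiles L-DOPA 3 and 7 stood far from all other lesioned libraries. On chromosome 3 from 49630001 to 49630250 (rn5, 7 CpGs), L-DOPA 3 was at 51.0% and L-DOPA 7 at 45.1%, while the other 5 L-DOPA libraries were at 92.4 to 95.6% and the 8 saline libraries at 89.5 to 97.2%. On chromosome 9 from 8902751 to 8903000 (4 CpGs) they were at 44.2 and 21.4%, against 71.0 to 81.0% in the other 5 and 68.5 to 79.9% under saline. On chromosome 3 from 2343001 to 2343250 (4 CpGs) they were at 38.9 and 30.6%, against 75.1 to 86.1% and 67.2 to 78.7%. These were the 3 tiles with the largest excess of SD under L-DOPA, so the excess itself is how they were chosen. In all 3 the low values belonged to L-DOPA 3 and 7.

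The 3 tiles with the largest excess of SD under saline were not of that kind. On chromosome 1 from 252924751 to 252925000 (2 CpGs), saline 8 was at 82.2% and saline 4 at 44.2%, with the other 6 saline libraries at 8.93 to 11.4%. L-DOPA 2 was at 44.8%, the other 6 L-DOPA libraries at 6.46 to 12.2%, and unlesioned 6, the library matched to saline 8, at 82.8%. On chromosome 1 from 116857001 to 116857250 (2 CpGs), saline 1, 4 and 8 were at 47.4, 45.8 and 45.4%, the other 5 at 76.8 to 96.7%, and unlesioned 6 again stood with saline 8, at 45.5%. The third, on chromosome X from 22974001 to 22974250 (6 CpGs), ranged from 50.6 to 89.6% under saline and from 72.3 to 84.5% under L-DOPA. At the first 2 of these tiles the deviating libraries thus differed by steps, and the step of saline 8 recurred in its partner.

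Depth was set beside these results. Total coverage is the sum of coverage over the listed cytosines, in which a read counts once for each cytosine it covers. It averaged 1.17e+08 in the L-DOPA group and 9.50e+07 in the saline group (exact permutation p = 0.0152, 0.0727 adjusted over 8 quantities). The libraries listed 1.41e+06 against 1.32e+06 cytosines (exact permutation p = 0.0182, 0.0727 adjusted). The L-DOPA libraries had the higher means of both, and neither difference passed adjustment. With coverage scaled to a common median per library, the quasi-binomial test described next called 0 tiles, 0 windows of 1 kb and 0 cytosines, as it did without scaling, with 6720, 4638 and 41362 at an unadjusted p under 0.05.

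At no size of feature did any difference between L-DOPA and saline pass the adjusted threshold of 0.05 in the quasi-binomial test of all 21 libraries. None of 180953 tiles, 146065 windows of 1 kb, 22912 windows of 100 kb or 857196 cytosines was called (percent called 0.0 at each), and limma on log2 odds called 0 at each as well. The smallest adjusted p was 1.00 for tiles and for both window sizes and 0.984 for cytosines. At an unadjusted p under 0.05 there were 6937 tiles, 4838 windows of 1 kb, 239 of 100 kb and 42312 cytosines, and limma gave 7254, 5482, 507 and 42480. These are 3.83%, 3.31%, 1.04% and 4.94% of the features tested. The median standard error of a difference was 2.22 points for a tile and 2.93 for a cytosine, and for tiles at 20 to 80% methylation it was 4.58 points, so changes of a few points at 1 such tile were not detectable at this depth and number of libraries.

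Small p-values leaned to lower methylation under L-DOPA with all libraries, and to higher methylation without L-DOPA 3 and 7 and unlesioned 1. For tiles the counts were 4167 lower (2.30%) and 2770 higher (1.53%) with all libraries, and 2423 lower (1.47%) and 4755 higher (2.88%) of 165076 without the 3. Windows of 1 kb went from 3031 lower (2.08%) and 1807 higher (1.24%) to 1555 (1.15%) and 4012 (2.97%). Windows of 100 kb turned most: 179 were lower (0.781%) and 60 higher (0.262%) with all libraries, against 82 lower (0.364%) and 3046 higher (13.5%) of 22534 without the 3, with a smallest adjusted p of 0.278. Cytosines went from 24256 lower (2.83%) and 18056 higher (2.11%) to 16013 (2.09%) and 24829 (3.25%). Which direction prevailed was thus set, at each size, by whether those libraries were included. With all libraries, 60.1% of the tiles with small p-values were lower, beside 58.3% of all tiles tested. These shares were 62.6% and 60.7% at 1 kb, 74.9% and 69.1% at 100 kb, and 57.3% and 54.7% for cytosines. Without the 3 they were 33.8% and 43.4% for tiles, and 2.62% and 21.6% at 100 kb. All features tested thus leaned the same way, and the lean is not read as a result about those with small p-values.

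**Figure D4:**
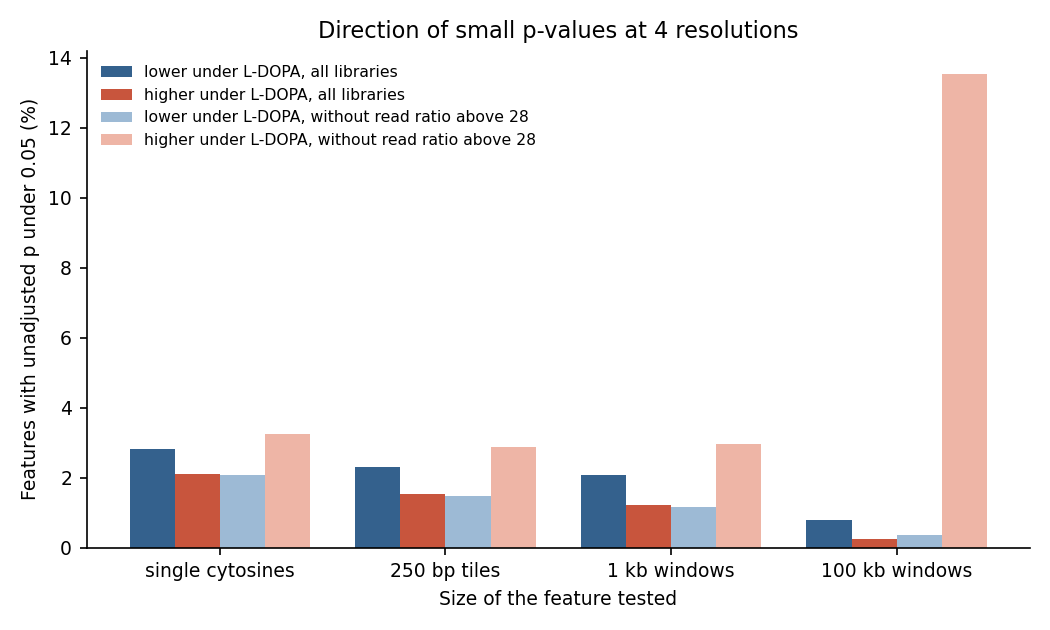
Share of features with an unadjusted p under 0.05 (percent, vertical axis from 0) at 4 feature sizes, split by direction, with all libraries (full colours) and without the libraries of read ratio above 28 (pale colours). Lower exceeds higher with all libraries at each size and higher exceeds lower without them, most at 100 kb, where 13.5% of windows are higher.

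A binomial model that takes reads as independent gave many calls from the same counts. At an adjusted p under 0.01 and a difference of at least 5 points, the limits that the series' design text gives for its own test, 6025 tiles fell on the lower side under L-DOPA (3.33%) and 1205 on the higher (0.666%). Leaving out the libraries of high read ratio gave 1086 lower tiles (0.658%) and 3750 higher ones (2.27%). For windows of 1 kb the shares went from 3.96% lower and 0.707% higher to 0.674% and 2.75%, and for 100 kb from 4.34% and 0.432% to 0.488% and 3.81%. For cytosines they went from 0.981% and 0.346% to 0.25% and 0.671%. The median dispersion within groups was 3.31 times binomial for tiles and 2.16 times for single cytosines, and the binomial model leaves it out. Tile counts add a read once for each CpG it covers, so part of the dispersion may not be spread between libraries. The size of that part was not tested. The direction of these calls turned with the same libraries. Differences in series 1 and series 2, which share no library, had an r of 0.0562 across the 139031 common tiles, as a description, and the same sign at 51.5% of them. Of the 4111 tiles that the binomial model put lower in series 1, 68.0% were lower in series 2, beside 60.05% of all tiles that were lower in series 1, and 47.5% beside 50.3% once L-DOPA 7 was left out. Of the 1999 put higher, 31.97% were higher in series 2, beside 41.3% of all tiles that were higher in series 1, and 42.5% beside 48.6% without L-DOPA 7. The higher calls thus recurred at a lower share than all tiles.

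Tiles in which every L-DOPA library lay on one side of every saline library were few. With all 15 libraries there were 12 lower (0.00863%) and 12 higher (0.00863%) of 139031 common tiles, 10 lower (0.00889%) and 12 higher (0.0107%) of 112524 windows of 1 kb, and 88 lower (0.0137%) and 79 higher (0.0123%) of 640826 cytosines. Without L-DOPA 3 and 7, 59 tiles were lower (0.0424%) and 122 higher (0.0878%). None of the features described from here on passed the adjusted test with all libraries. They are the 5 with the smallest p per direction at each size, and further tiles picked by the rule stated with the processing, given as values. The unlesioned values given with them come from libraries matched to lesioned saline ones, so they are no independent check of the saline level.

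Lower tiles came first on chromosome 7, from 11486251 to 11486500 (6 CpGs). The L-DOPA libraries ran from 22.1 to 29.8% with a median of 24.0%, and 7 saline libraries from 31.0 to 45.5% with a median of 37.4%. The groups did not overlap, and the 6 unlesioned libraries, at 29.2 to 33.8%, reached into both ranges. The means were 24.9% ± 2.80 (SD, n = 7) and 37.2% ± 5.40 (SD, n = 7), a difference of −12.2 points (SE 2.30, unadjusted p 4.98e-05 and adjusted p 1.00 in the quasi-binomial test), and the difference was −11.0 points in series 1 and −13.7 in series 2. Of its 7 tested cytosines 5 were lower and 2 higher, from −19.8 to 11.1 points.

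Other lower tiles held larger differences with some overlap. On chromosome 6 from 154044751 to 154045000 (3 CpGs) the L-DOPA libraries had 38.4 to 74.5% (median 48.5%) and the saline libraries 59.8 to 83.3% (median 70.8%), and all 3 tested cytosines were lower. L-DOPA 4, at 74.5%, was the only L-DOPA library above the saline minimum; without the libraries of high read ratio the difference went from −19.7 to −14.7 points. On chromosome 7 from 12609751 to 12610000 (8 CpGs) the ranges were 26.9 to 43.4% and 35.4 to 62.1%, with all 9 tested cytosines lower and differences of −12.6 points in each series. This tile is one whose difference hardly moved with the libraries, at −15.3 points with all of them and −14.9 without those of high read ratio.

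Some lower tiles were close to unmethylated in every library. On chromosome 11 from 76763501 to 76763750 (3 CpGs) all 7 L-DOPA libraries read 0%, while the saline libraries read 0.893 to 7.69% and the unlesioned ones 0 to 2.50%. On chromosome 15 from 63734501 to 63734750 (5 CpGs) the ranges were 0 to 1.21% and 0.735 to 7.11%. On chromosome 1 from 229089001 to 229089250 (3 CpGs) they were 0 to 1.81% and 1.44 to 5.03%, and on chromosome 7 from 130030001 to 130030250 (5 CpGs) 0 to 1.14% and 0 to 6.15%. In each the saline group, not the L-DOPA group, held the spread-out values, and the unlesioned maximum (2.50, 1.31, 1.66 and 4.32%) was below the saline maximum.

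Higher tiles were led by one at low level on chromosome 7 from 78244001 to 78244250 (10 CpGs). L-DOPA libraries had 1.54 to 3.04% (median 2.19%) and saline libraries 0.754 to 1.84% (median 1.22%), a difference of 1.07 points (SE 0.222, unadjusted p 2.94e-05, adjusted p 1.00, quasi-binomial test). Its cytosine at 78244175 was also among the leading higher cytosines, at 7.16% ± 2.29 (SD, n = 7) against 3.12% ± 1.06 (SD, n = 8). On chromosome 4 from 67326751 to 67327000 (4 CpGs) the groups did not overlap, with 4.03 to 8.72% under L-DOPA and 1.32 to 2.66% under saline, but the unlesioned libraries spread over both, at 1.27 to 7.48%. On chromosome 13 from 113457501 to 113457750 (11 CpGs) all 11 tested cytosines were higher, and the ranges were 9.97 to 12.1% and 7.32 to 10.6%, where saline 6 at 10.6% alone overlapped. The differences at these 3 tiles were from 1.07 to 3.46 points.

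At the upper end, fully methylated tiles differed through the saline libraries. On chromosome 7 from 60937751 to 60938000 (3 CpGs), 6 of 7 L-DOPA libraries read 100% and L-DOPA 3 read 98.0%, while the saline libraries read 88.1 to 100%. On chromosome 4 from 225132501 to 225132750 (2 CpGs) the ranges were 97.4 to 100% and 86.3 to 97.5%. On chromosome 10 from 105043251 to 105043500 (2 CpGs), measured in 6 libraries of each group, they were 92.0 to 100% and 63.9 to 87.0% without overlap, a difference of 18.4 points. This last tile differed by 17.4 points or more in both series and without the libraries of high read ratio.

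The largest higher difference among the named tiles was on chromosome 7 from 26714251 to 26714500 (3 CpGs). The L-DOPA libraries had 50.0 to 83.9% (median 65.1%) and the saline libraries 35.2 to 53.5% (median 42.8%), with overlap only between L-DOPA 4 at 50.0% and saline 7 at 53.5%. The means were 65.8% ± 12.4 (SD, n = 7) and 43.6% ± 5.71 (SD, n = 8), and the difference of 22.2 points (SE 5.09) was 25.5 in series 1 and 17.6 in series 2. The unlesioned libraries covered both groups, from 37.1 to 83.6%. The quasi-binomial test gave an adjusted p of 1.00.

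Of the 164590 tiles tested both with all libraries and without those of high read ratio, 3105 had an unadjusted p under 0.05 with the same direction in both. They divided almost evenly, with 1581 lower and 1524 higher, unlike the counts in either set alone. The tiles that led this list included several already given, on chromosomes 1, 7 and 10. Also among them were a tile on chromosome 19 from 60067251 to 60067500 (90.7% ± 1.99 against 94.1% ± 1.32), one on chromosome 20 from 7534001 to 7534250 (1.498% ± 0.374 against 2.70% ± 0.674), one on chromosome 5 from 163314001 to 163314250 (4.41% ± 2.85 against 1.30% ± 0.562) and one on chromosome 18 from 53154751 to 53155000 (2.78% ± 0.693 against 1.77% ± 0.313), each with n = 7 and 8. The 2 fits share 18 libraries, so their common direction is not an independent repeat.

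Runs of neighbouring tiles with small p-values in the same direction were counted next, without a share to set them against. Of the tiles with an unadjusted p under 0.05, 4042 lower and 2676 higher ones stood alone, 61 lower and 44 higher runs had 2 tiles of the same direction within 1 kb, and 1 lower and 2 higher runs had 3. The runs of 3 were on chromosome 18 from 447001 to 447750 (6.27% ± 2.85 against 2.72% ± 1.41), on chromosome 13 from 115141001 to 115141750 (7.48% ± 7.90 against 3.53% ± 0.833) and on chromosome 20 from 20760001 to 20760750 (0.965% ± 0.280 against 1.80% ± 0.692; SD, n = 7 and 8). The run on chromosome 13 rested on L-DOPA 6, at 24.4%, and L-DOPA 7, at 10.3%, with the other 5 L-DOPA libraries at 2.40 to 4.28% and its difference at −0.212 points in series 1.

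Of the runs of 2 tiles, only the 2 with the smallest product of p-values were described, and the rest were not looked at for overlap. One of these 2, on chromosome 10 from 66710251 to 66710750, with 60 CpGs in little-methylated DNA, separated the groups. The 7 L-DOPA libraries had 1.57 to 2.15% and the 8 saline libraries 0.916 to 1.44%, a difference of 0.553 points that was 0.513 in series 1 and 0.552 in series 2. The unlesioned libraries, at 1.06 to 1.49%, lay with the saline ones, of which they are not independent. The other of these 2, on chromosome 16 from 5731751 to 5733000 (10 CpGs), had 26.0 to 34.9% under L-DOPA and 34.6 to 40.98% under saline. Only L-DOPA 6 (34.9%) and saline 7 (34.6%) overlapped. Its difference was −10.5 points in series 1 and −5.08 in series 2. Every tile of these runs had an adjusted p of 1.00 in the quasi-binomial test.

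In windows of 1 kb the leading higher feature was on chromosome 20 from 24231001 to 24232000 (12 CpGs). L-DOPA libraries had 73.7 to 78.7% (median 76.9%) and saline libraries 57.6 to 73.5% (median 66.2%), just short of overlap. The means were 76.7% ± 1.57 (SD, n = 7) and 66.1% ± 4.76 (SD, n = 8), a difference of 10.5 points (SE 1.78, adjusted p 1.00 in the quasi-binomial test), at 12.9 points in series 1 and 4.69 in series 2. The unlesioned libraries ran from 68.4 to 79.8% across both groups. Another higher window, on chromosome 3 from 16738001 to 16739000 (7 CpGs), had 9.72 to 24.4% under L-DOPA and 0.556 to 10.4% under saline, with the unlesioned libraries at 1.96 to 7.19%, inside the saline range.

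Lower windows of 1 kb included one on chromosome 8 from 129239001 to 129240000 (5 CpGs), with 1.88 to 9.24% under L-DOPA and 6.61 to 19.9% under saline and all 5 tested cytosines lower. One on chromosome 2 from 276102001 to 276103000 (5 CpGs) separated the groups by a small margin, with 0.619 to 1.69% and 1.72 to 4.17%. The window on chromosome 11 from 67630001 to 67631000 (7 CpGs) was of the stepped kind. All 7 L-DOPA libraries had 0.913 to 2.90%, while saline 1, 5, 7 and 8 had 41.4, 39.4, 40.6 and 40.5% and saline 2, 3, 4 and 6 had 1.39, 5.47, 2.47 and 2.11%. Unlesioned 3, 5 and 6, the partners of saline 5, 7 and 8, had 53.1, 45.6 and 44.9%, and unlesioned 1, 2 and 4 had 2.28, 0 and 7.87%. The level at this window thus followed the library matches, and 4 of 8 saline libraries against 0 of 7 L-DOPA libraries held the higher step.

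At 100 kb the lower windows on chromosome 15 from 38500001 to 38600000 (69.6 to 80% under L-DOPA, 81.8 to 86.3% under saline) and on chromosome X from 153500001 to 153600000 (79.3 to 90.3% and 91.5 to 100%) separated the groups. Each was built on few CpGs, 3 and 11. The window on chromosome X from 26700001 to 26800000 (17 CpGs), with the smallest p, had 60.7 to 79.9% against 78.4 to 92.5%. Among higher windows none separated the groups; the first, on chromosome 7 from 65600001 to 65700000 (39 CpGs), had 49.4 to 54.6% against 45.03 to 52.6%.

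Single cytosines lower under L-DOPA included 2 near full methylation whose groups did not overlap. The cytosine on chromosome 7 at 138329065 had 90.6 to 96.2% under L-DOPA and 98.2 to 100% under saline, and that on chromosome 12 at 46967021 had 70.4 to 93.3% and 93.9 to 100%. The cytosine on chromosome 10 at 102210888 was at 0% in 6 of 7 L-DOPA libraries and 11.3% in L-DOPA 7. Under saline it was at 15.6 to 58.1% in 7 of 8 libraries, with saline 8 at 0%, and unlesioned 6, its partner, was also at 0% while the other 5 unlesioned libraries had 28.6 to 70.6%. The cytosine on chromosome 11 at 67630686 lies in the stepped window of that chromosome, at 0% in all 7 L-DOPA libraries and 0 to 13.6% under saline. The fifth, on chromosome 18 at 28426358, had 38.0 to 69.1% and 59.5 to 93.6%.

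Among the higher cytosines, the one on chromosome 7 at 126625058 was at 0% in all 8 saline libraries and at 1.05 to 4.07% in the 7 L-DOPA libraries, with the unlesioned ones at 0 to 3.39%. The cytosine on chromosome 9 at 25648504 was at 62.8, 52.1 and 48.8% in L-DOPA 4, 5 and 7 and under 1% in every other library, unlesioned ones included. Its mean difference of 23.4 points therefore came from 3 libraries, all of series 2. On chromosome 8 at 74260092 the L-DOPA libraries had 84.6 to 100% and 7 saline libraries 31.0 to 100%. On chromosome 14 at 46702776 L-DOPA 2 stood at 38.2%, with the rest of its group at 0 to 10.5% and the saline libraries at 0 to 9.52%.

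**Figure D5:**
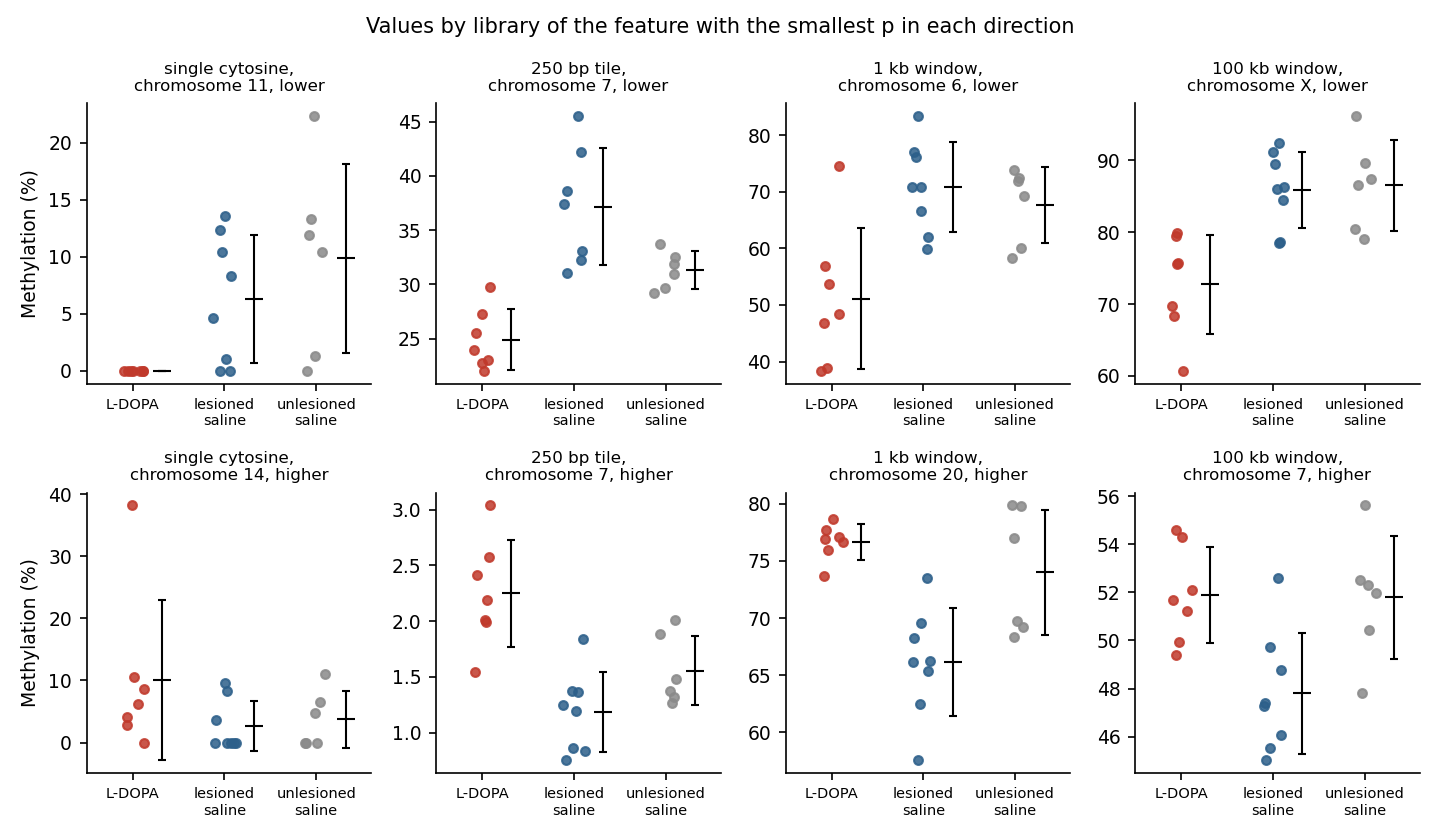
Methylation (percent, vertical axes differ and most do not start at 0) of each library at the feature with the smallest p in each direction at 4 sizes, with lower features in the upper row and higher ones below. Points are libraries, bars are the mean ± SD of the 7 L-DOPA, 8 lesioned saline (7 in the 250 bp tile, lower) and 6 unlesioned libraries, and only the lower tile on chromosome 7 and the higher window on chromosome 20 keep L-DOPA and saline apart.

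No step-like cytosine was called, though a larger share of them had small p-values than of the wider set, which includes them. Step-like cytosines were picked by levels in the same lesioned libraries that the test compares. The rule requires wide gaps between those libraries, so the larger share is partly set by the choice and no conclusion is drawn from it. Of the 221, 55 (24.9%) had an unadjusted p under 0.05, beside 5.02% of the 640826 cytosines listed in all libraries and of pooled level 1 to 99%. The median size of their difference was 8.31 points with a median SE of 10.5. None had all L-DOPA libraries on one side of all saline libraries. Of the 10 leading cytosines, 1 was step-like.

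Some alternative fits passed the threshold at a few features, which were picked here after their values had been seen. In series 1 alone, with 3 L-DOPA and 6 saline libraries, 1 tile was called, on chromosome 12 from 39904751 to 39905000 (5 CpGs, adjusted p 0.000876 in the quasi-binomial test). It was at 33.6, 38.3 and 40.2% in L-DOPA 1 to 3 and at 2.80 to 7.92% in saline 1 to 6, a difference of 32.6 points. In series 2, L-DOPA 4 and 5 were at 8.46 and 4.97%, L-DOPA 6 and 7 at 33.5 and 33.8%, saline 7 at 4.08% and saline 8 at 22.2%, a difference of 7.04 points. Unlesioned 6, partner of saline 8, was at 24.6%, and the other 5 unlesioned libraries at 0.995 to 8.37%. Over all libraries 5 of 7 L-DOPA and 1 of 8 saline libraries were above 20%, with an adjusted p of 1.00.

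The 7 cytosines called in series 1 likewise had levels that differed within groups. On chromosome 18 at 62044713, L-DOPA 1 to 3 were at or under 0.439% and saline 1 to 6 at 40.0 to 71.7%, but in series 2 L-DOPA 4 and 7 were at 35.6 and 32.2% and saline 8 at 0%, while L-DOPA 5 and 6, at 0%, and saline 7, at 32.1%, lay as in series 1. On chromosome 10 at 101837046, L-DOPA 1 to 6 were at 96.6 to 100% and L-DOPA 7 at 49.6%, while 6 saline libraries were at 40.6 to 55.2%, saline 6 at 0% and saline 8 at 99.1%. On chromosome 1 at 167871691 and at 168163252, which lie 291561 bp apart, L-DOPA 1 to 3, saline 3 and unlesioned 2 were all at 0%, and L-DOPA 6, saline 8 and unlesioned 6 were the highest at both. Saline 8 and unlesioned 6 were at 0 and 0%, 99.1 and 98.6%, 86.7 and 88.4%, and 83.3 and 75.3% at these 4 cytosines in turn. At the other 3, they were at 0 and 0% on chromosome 3 at 129550984, at 27.6 and 26.8% on chromosome 12 at 39904808, and at 54.2 and 28.9% on chromosome 12 at 39426529, where they differed most.

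Without the libraries of high read ratio 3 of 765127 cytosines were called (0.000392%), all higher. Those on chromosome 1 at 13499553 and 13499544 are 9 bp apart and were read 2116 to 23036 times per library, far above the median coverage. At the first, L-DOPA libraries had 11.97 to 27.1% and saline libraries 10.1 to 18.6%, with L-DOPA 1 and 4 at 27.1 and 25.6% and the rest of the group at 11.97 to 20.9%. The cytosine on chromosome 3 at 119988547 was at 26.1, 23.8 and 28.2% in L-DOPA 4, 5 and 6 and at 1.47 to 4.98% in L-DOPA 1, 2, 3 and 7, against 2.24 to 8.06% under saline. Its difference was −1.57 points in series 1 and 15.2 in series 2.

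With the read ratio as a term in the model 7 cytosines were called, most through single saline libraries. On chromosome 12 at 47025680 saline 6 was at 51.3%, unlesioned 4, its partner, at 31.2%, and every other library at 0%. On chromosome 3 at 15932120 the same held, in the libraries that listed it, for saline 8 (62.5%) and unlesioned 6 (45.8%), and on chromosome 1 at 211215270 for saline 6 (37.8%) and unlesioned 4 (70%). On chromosome 15 at 50189824 no single library decided: L-DOPA libraries had 27.9 to 52.7%, with L-DOPA 3 and 7 the lowest, and saline libraries 49.1 to 62.4%. Without the libraries of high read ratio its difference went from −12.6 to −6.84 points.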

How the data were processed

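Per the labels' protocols, 1 µg of genomic DNA per sample was bisulfite-converted (conversion over 98%) and sequenced on a HiSeq-2500 as single-end reads of 50 bases. Tools in the submitters' processing notes are Bismark 0.13.0 and methylKit 0.9.2, besides Trim Galore 0.3.7, FastQC 0.10.1 and SAMtools 0.1.19, and the build is rn5. The deposited coverage is a count of reads per cytosine, and the authors give beside it the percent of reads showing C and showing T; the 2 gave whole methylated counts at 100% of cytosines. No listed cytosine had under 10 reads, and 36.4% to 58.8% per library had over 50, more than reads of 50 bases with distinct starts could give on 1 strand. PCR copies may thus remain, in which case counting variances, the ratios to counting and the binomial calls treat copies as independent reads. Coverage was not scaled in the main test.

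Tiles of 250 bp needed at least 2 CpGs in a library. Features measured in at least 5 libraries of each group with a pooled level of 1% to 99% were tested with a quasi-binomial logistic model over 21 libraries in 3 groups, with dispersions shrunk across features as limma's squeezeVar does and never under 1, an F-test and Benjamini-Hochberg adjustment (threshold 0.05). limma 3.58.1 (R 4.3.3) on log2 odds with a pseudocount of 0.5 was the other tool; numpy 2.4.6 and scipy 1.17.1 (Python 3.11.15) did the rest. The fit was tested on simulated data. Single values were compared by exact permutation tests of 7 against 8 libraries, in 6435 splits.

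The features named were the 5 with the smallest p per direction at each size, since fewer than 3 passed; the 5 tiles per direction with the smallest larger p with and without libraries of read ratio above 28; the 5 longest runs; and the 3 tiles per direction with the largest difference in SD among those with at least 100 reads per library. Runs of equal length were ordered by the product of the p-values of their tiles, smallest first. The comparison, lists and rules were chosen with earlier results of these data known. The binomial limit of 0.01 was taken in place of 0.05 after both counts were seen. Alternatives were other filters, tests and groupings, and leaving out libraries. Gene and cell type lists were not used without an rn5 annotation.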

Additional observations from a re-analysis of the deposited data

Results flagged for a closer look

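In 119 sets of 7 or 8 values, 13 had an end value set apart from the rest by a gap beyond Dixon's limit. Chance gives about 1 in 20 (5.95) for independent sets of bell-shaped values that were not picked. Many of these sets were picked by p or SD, some sit at 0 or 100%, and some share reads. The 13 are therefore a list of values and no excess over chance can be read from them. Saline 3 listed 1.134e+06 cytosines, with the next saline library at 1.30e+06. In tiles, saline 6 had 10.6% on chromosome 13 from 113457501 (next 8.85%), L-DOPA 5 had 97.4% on chromosome 4 from 225132501 (next 99.2%), L-DOPA 3 had 98.0% on chromosome 7 from 60937751 (the others 100%), L-DOPA 3 had 1.14% on chromosome 7 from 130030001 (next 0.478%) and L-DOPA 2 had 44.8% on chromosome 1 from 252924751 (next 12.2%). The window of 1 kb on chromosome 7 from 60937001 holds the same reads as its tile, with L-DOPA 3 again at 98.0%, and on chromosome 2 from 276102001 saline 4 had 4.17% (next 2.84%).

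At 100 kb, saline 3 had 96.4% on chromosome 15 from 75900001 (the others 100%) and L-DOPA 1 had 3.38% on chromosome 5 from 131900001 (next 1.98%). Among cytosines, L-DOPA 7 had 11.3% on chromosome 10 at 102210888 (the others 0%), L-DOPA 2 had 38.2% on chromosome 14 at 46702776 (next 10.5%) and saline 4 had 0.599% on chromosome 9 at 25648504 (the others 0%).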

How the results depend on the processing

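With libraries of read ratio above 28 left out, the mean difference reversed in tiles (0.557 points), in series 1 (1.04), at single cytosines (0.548) and in windows of 1 kb (0.692), and the spread reversed in tiles (−4.20), in windows of 1 kb (−6.54) and with library means set equal (−2.86), but not at single cytosines (3.60, from 44.2 with all libraries). Leaving out 1 library at a time gave mean differences of −1.04 to −0.157 points, spreads of 16.01 to 36.8 and separations of −2.67 to 0.699, the last without saline 2. The quasi-binomial test made 0 calls at each of the 4 sizes without any single library. It called 1 tile, 1 window of 1 kb and 7 cytosines in series 1, 3 cytosines without high read ratio, 7 with a read-ratio term and 1 with the replicate block (adjusted p 0.0174, chromosome 9 at 25648504). With only the 2 lesioned groups fitted it called 0 at each size. Windows of 100 kb at an unadjusted p under 0.05 went from 239 to 3128 without high read ratio.

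The binomial model without overdispersion called, in the order tiles, 1 kb, 100 kb and cytosines, 15955, 14623, 9708 and 15938 features with no minimum difference. With at least 5 points it called 7230, 6819, 1093 and 11370, or 11409, 10312, 1264 and 29709 at 0.05. Without high read ratio it called 4836, 4621, 968 and 7047, or 8194, 7416, 1092 and 20303 at 0.05. This model leaves out the dispersion within groups, and the cause of that dispersion was not tested.

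Of 533 values of named features under other settings 5 reversed: without high read ratio chromosome 3 from 49630001 (0.806), chromosome 9 from 8902751 (0.926) and chromosome 3 from 2343001 (8.51), and in series 1 chromosome 1 from 252924751 (5.57) and from 116857001 (−0.949). Of 803 values without 1 library 2 reversed, both on chromosome 3 from 2343001 (0.233 without L-DOPA 3 and 1.61 without L-DOPA 7, over a range of −7.63 to 1.61). No pairing by replicate number was seen. Same-numbered libraries deviated together with r of −0.177 to 0.209 over 7 pairs, and 1 library correlated best with its own number. Such values cannot exclude a weaker pairing. With the replicate block the mean difference was −0.683 points (exact permutation p = 0.5).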
